A study of Mus musculus with 18 samples.

Results

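Untreated colon epithelium that lacks Mbd2 was set against colon epithelium of wild-type (WT) mice with colitis. The first group, Naive_KO, holds the 4 arrays titled with that name (replicates 13, 14, 15 and 16) and the second, DSS_WT, the 5 arrays titled with that name (1, 2, 3, 4 and 4R), which makes 9 of the 18 arrays of the series. Arrays 4 and 4R were averaged, so that 8 samples were compared, 4 a side. The Naive_KO mice carried a deletion of Mbd2 in every tissue (Mbd2-/-) and received no agent, and the DSS_WT mice had intact Mbd2 and drank 2% dextran sulfate sodium (DSS) for 6 days. A further group of 4 samples, untreated WT mice (Naive_WT, replicates 9 to 12), served as the common base of both states. Per the study's methods, Mbd2-/- mice were on a C57BL/6 background, age and sex were matched, and WT controls were littermates housed with them where possible. Mice were 8 to 22 weeks old, with no age given for a single group, and replicates came from separate experiments that the labels do not tie to samples. Colon epithelial cells were sorted by flow cytometry as EpCAM+ cells without CD45, CD3 or F4/80. Per the design text of the series, the RNA of a replicate came from 1 mouse or a pool of up to 5 mice. The paper's methods give a wider range over its sorted populations. The p-values thus measure the spread between these samples. As the deletion is not limited to epithelium, a difference in Naive_KO may start in any cell of the mouse, and DSS_WT differed from Naive_KO in both genotype and treatment.

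Mbd2 is a protein that binds methylated CpG dinucleotides and recruits the NuRD corepressor complex, and it is known for keeping methylated genes silent. DSS is a sulfated polymer that injures the gut lining, after which bacteria reach the mucosa and an acute colitis with epithelial repair follows. Colon epithelium responds to interferon-γ from lymphocytes with guanylate-binding GTPases, Ido1 and both classes of major histocompatibility complex (MHC) genes, and to interleukin-22 and interleukin-6 with antimicrobial lectins of the Reg family and acute-phase genes.

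Between 18851 and 20618 of 45281 probes were detected on an array (41.6% to 45.5%), and median signals ran from 106 to 146 intensity units, close to background. The 4 and 4R arrays differed with a standard deviation (SD) of 0.194 on the log2 scale, and any 2 other arrays of DSS_WT with an SD of 0.334 to 0.482. The probe for Mbd2 was detected on 0 of 18 arrays (lowest detection p-value 0.151), WT arrays included, so that it could not check the genotype labels. Epcam, Vil1, Cdx1, Cdx2 and Cdh1, which define intestinal epithelium, were detected on all 18 arrays. No member of the list of 15 epithelial identity genes measured was called between Naive_KO and DSS_WT (median log2 difference 0.02). Among markers of cells that the sort should remove, Ptprc, the gene of CD45, was detected on 0 Naive_KO and 1 of 5 DSS_WT arrays, and Adgre1, the gene of F4/80, on 2 of 4 Naive_KO and 5 of 5 DSS_WT arrays.

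Of 21938 probes tested, 563 (2.57%) were called between Naive_KO and DSS_WT at a limma adjusted p under 0.01 and an absolute log2 difference of 1 or more. They comprised 203 probes higher in Naive_KO (0.925%) and 360 lower (1.64%), and belonged to 493 genes. In 547 of them the samples of both groups did not overlap, which the call on the same samples makes likely, against 4386 of all tested probes (20.0%). Differences are given as Naive_KO minus DSS_WT on the log2 scale, where a difference of 1 is a change of 2-fold, with the standard error after the sign ±. The 12 largest positive differences that did not overlap between groups included the MHC genes H2-DMb1, H2-Q8, H2-DMb2 and H2-Q6 and the class II transactivator Ciita, and the 12 largest negative ones included Serpina3n, Timp1, Mgp, Il11, Mmp10 and Mmp3, genes known from injury, repair and matrix turnover. With arrays scaled to a common median in place of quantile normalization, the median over 15757 genes moved from -0.02 to -0.37, and 83 probes were then called higher and 1232 lower. Leaving out DSS_WT replicate 4 gave 117 higher and 235 lower probes, and leaving out Naive_KO replicate 15 gave 116 probes higher.

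**Figure D1:**
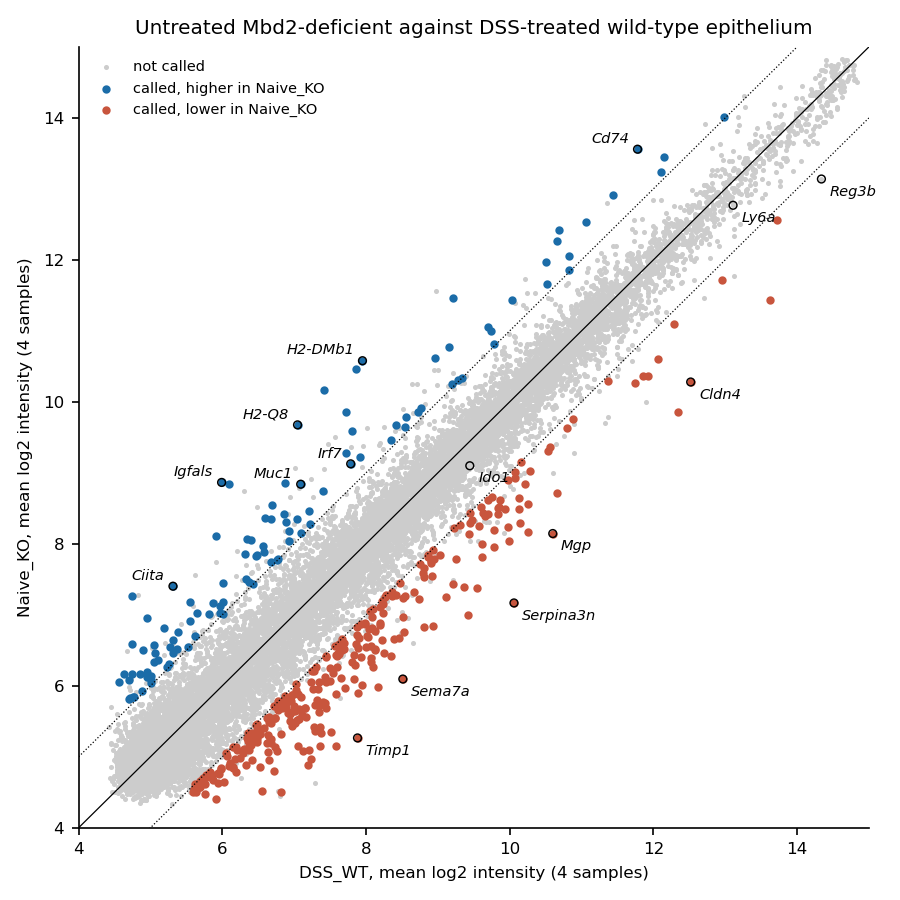
Mean log2 intensity of each of 15757 genes in Naive_KO (vertical axis) against DSS_WT (horizontal axis), 4 samples each, with the brightest probe standing for a gene. The solid line marks equal levels, dotted lines a log2 difference of 1, blue and red points the genes called higher and lower in Naive_KO, and circled genes are named in the text; Ido1, Reg3b and Ly6a lie between the called genes.

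To see how both states were reached, each was compared with Naive_WT. Mbd2 loss alone (Naive_KO against Naive_WT) gave 144 called probes (0.656%), 88 higher (0.401%) and 56 lower (0.255%), and injury alone (DSS_WT against Naive_WT) gave 382 (1.74%), 294 higher (1.34%) and 88 lower (0.401%). These contrasts share the Naive_WT samples, and the difference between them equals the direct comparison of Naive_KO with DSS_WT, so that the direct comparison tests whether the mutation and the injury moved a gene by different amounts. With 1 probe a gene, 402 genes were called in the direct comparison. Of these, 151 were called with injury and not with the mutation, 37 with the mutation and not with injury, 4 with both and 210 with neither. Another 21 genes were called in the same direction with both and were not called in the direct comparison. These numbers rest on calls that move: with 1 sample left out the mutation gave 73 to 279 probes and DSS 233 to 477, and with median scaling DSS gave 625 higher and 35 lower.

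**Figure D2:**
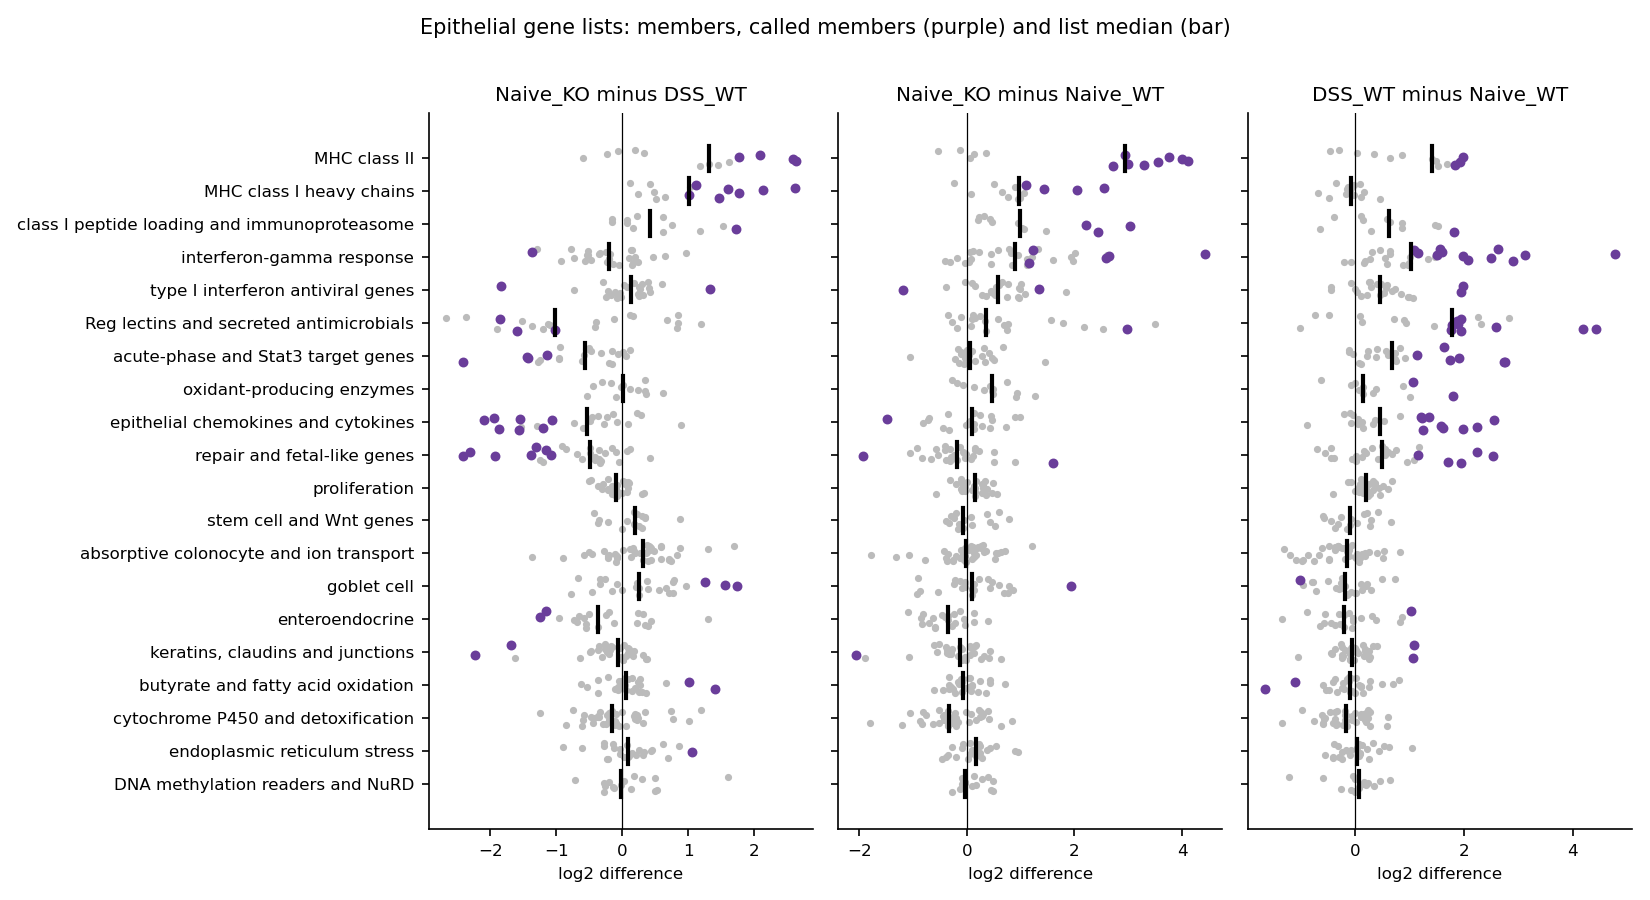
Log2 differences of the measured members of the 20 epithelial gene lists (rows) in the direct comparison and in each comparison with Naive_WT (panels, each with its own scale). Each dot is a gene, purple dots are called genes and the black bar is the list median; the median of MHC class II lies right of 0 in all 3 panels, while the medians of the Reg, acute-phase and chemokine lists lie right of 0 with DSS and left of 0 in the direct comparison.

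Of 30 interferon-γ response genes, 4 (Ido1, Igtp, Ifi47 and Parp14) rose both in uninjured Mbd2-/- and in colitic WT epithelium, and none of the 4 was called between these states. Ido1, which starts tryptophan breakdown, had log2 intensities of 11.07, 8.01, 8.82 and 8.50 in Naive_KO, 9.17, 7.62, 10.63 and 10.36 in DSS_WT and 5.15, 4.39, 4.81 and 4.33 in Naive_WT. Both groups lay above every Naive_WT sample and overlapped each other. Only 1 of 4 Naive_WT arrays detected Ido1, so that its rises start from values near background and are not exact. Ido1 rose by 4.43 ± 0.60 with the mutation (limma adjusted p = 6.7e-04) and by 4.77 ± 0.60 with DSS (adjusted p = 3.6e-04), and the direct difference was -0.34 (95% confidence interval (CI) -1.62 to 0.93, adjusted p = 0.728).

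Igtp and Ifi47 encode interferon-inducible GTPases that act on vacuoles with pathogens. Igtp gave 11.23, 8.90, 10.25 and 8.22 in Naive_KO and 9.51, 8.61, 10.34 and 9.71 in DSS_WT, with the Naive_WT samples at 6.86 to 7.23. Both states overlapped, and the interval of the direct difference for Igtp ran from -0.97 to 1.18 around 0.11. Ifi47 rose by 2.64 ± 0.41 with the mutation and 1.98 ± 0.41 with DSS (direct difference 0.66, CI -0.21 to 1.52). Tap1, a subunit of the transporter that feeds peptides to MHC class I, rose by 2.44 ± 0.36 and 1.82 ± 0.36 (direct difference 0.62, CI -0.15 to 1.39). The intervals of Ido1, Ifi47, Tap1 and Igtp reach past a 2-fold difference on 1 side, so that equal levels were not shown. The calls of Igtp were not stable: with each of 16 samples left out in turn its mutation call was lost in 11 (2.07 to 3.07) and its DSS call in 7 (2.22 to 2.80), while the DSS calls of Tap1 and Ifi47 were lost in 6 (1.68 to 2.00) and 5 (1.84 to 2.19). Both calls of Ido1 held throughout.

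Ly6a, the surface protein Sca-1 that marks regenerating colon epithelium, gave 13.57, 12.75, 12.67 and 12.07 in Naive_KO, 13.33, 12.57, 13.22 and 13.32 in DSS_WT and 11.20, 11.12, 11.35 and 10.96 in Naive_WT. It rose by 1.61 ± 0.25 with the mutation (adjusted p = 0.00170) and by 1.95 ± 0.25 with DSS (adjusted p = 3.6e-04), and its direct difference of -0.34 had an interval of -0.86 to 0.18, within 2-fold on both sides. Of the 23 genes called in the same direction with both, 18 rose and 5 fell. Beside those named above and the MHC genes below, the risers included Parp14 (1.23 and 1.08), Adora2b, an adenosine receptor (1.28 and 1.20), and the malic enzyme Me1 (1.75 and 1.52). Glul, glutamine synthetase, fell by 1.46 with the mutation and by 1.09 with DSS. These 4 genes were picked after their values were seen. As both contrasts rest on the same Naive_WT samples, a low or high Naive_WT value raises or lowers both changes together.

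Promoters of Igtp and of Reg3b, an antimicrobial lectin that also rose with both, are shown because these genes moved in both states and hold the motifs below. They were picked after the motif search, and the promoters of Ifi47 and Tap1, which moved likewise, hold neither motif. They are the 250 bases before the transcript start from RefSeq (mouse assembly GRCm38.p6). Capitals mark the interferon-γ activated site TTCNNNGAA, bound by Stat factors, and the interferon-stimulated response element, here a pair of GAAA with any 2 bases between them, searched on both strands. These lie in 7.02% and 2.98% of 32841 mouse promoters of the same length. Igtp (chr11:58199306-58199555, plus strand) holds TTCNNNGAA from 45 to 37 and the response element from 34 to 25 bases before the start, and Reg3b (chr6:78370635-78370884, plus strand) holds TTCNNNGAA from 129 to 121 bases before it. The sequences hold 8 and 3 CG dinucleotides, the bases that Mbd2 can bind when methylated, against a median of 6 and quartiles of 2 and 16 over all promoters.
Igtp: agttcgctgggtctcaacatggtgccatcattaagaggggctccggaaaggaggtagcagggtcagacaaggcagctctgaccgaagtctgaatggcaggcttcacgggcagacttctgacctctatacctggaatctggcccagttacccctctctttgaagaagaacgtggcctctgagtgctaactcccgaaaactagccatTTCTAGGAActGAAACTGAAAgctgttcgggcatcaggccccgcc
Reg3b: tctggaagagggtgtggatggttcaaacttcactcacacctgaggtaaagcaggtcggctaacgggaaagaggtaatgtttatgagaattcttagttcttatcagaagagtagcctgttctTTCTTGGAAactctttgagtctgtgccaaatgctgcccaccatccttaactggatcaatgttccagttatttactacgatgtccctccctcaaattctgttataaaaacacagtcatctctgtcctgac

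Reg3b gave 14.45, 12.67, 13.08 and 12.35 in Naive_KO, 14.53, 13.76, 14.56 and 14.51 in DSS_WT and 9.82, 9.51, 11.92 and 9.36 in Naive_WT. All Naive_KO samples lay above all Naive_WT samples, and replicate 13 reached the level of colitis while replicates 14, 15 and 16 lay below every DSS_WT sample. Reg3b rose by 2.99 ± 0.48 with the mutation (limma adjusted p = 0.00229) and by 4.19 ± 0.48 with DSS (adjusted p = 2.5e-04), and the direct difference of -1.20 was not called (CI -2.21 to -0.19, adjusted p = 0.0922). A second, dimmer Reg3b probe gave 2.16 with the mutation and -2.36 in the direct comparison, and neither was called. The highest values of the brighter probe lie near the top of the scale (14.88 over all probes and arrays), where differences can be compressed.

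**Figure D3:**
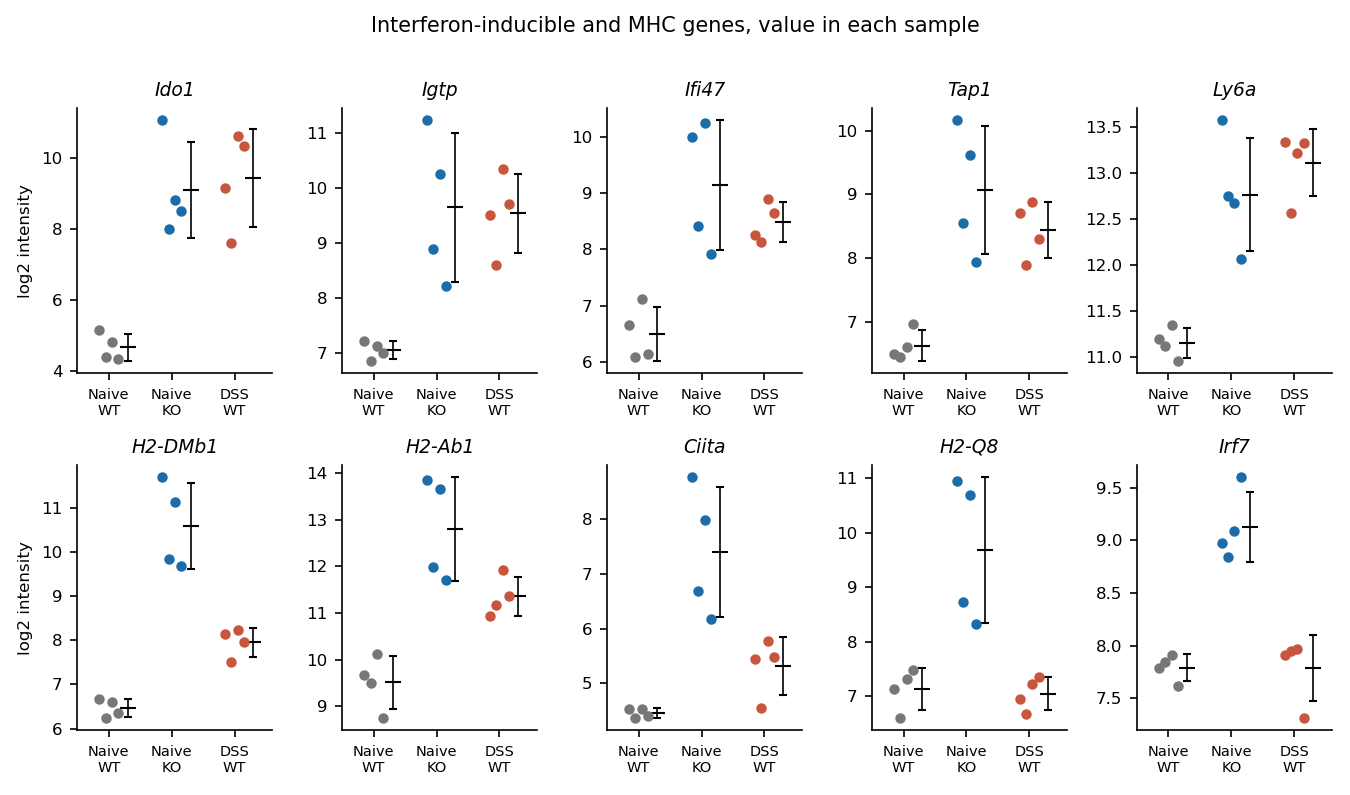
Log2 intensity of 10 interferon-inducible and MHC genes in each sample of Naive_WT (grey), Naive_KO (blue) and DSS_WT (red), with the group mean and SD (n = 4) to the right of the points. Each panel has its own scale. Ido1, Igtp, Ifi47, Tap1 and Ly6a overlapped between Naive_KO and DSS_WT, while in H2-DMb1, Ciita, H2-Q8 and Irf7 all Naive_KO samples lay above those of DSS_WT. H2-Ab1, which was not called on this probe, overlapped in its lowest Naive_KO sample.

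Of the MHC class II genes, H2-DMb1, H2-DMb2, Cd74 and Ciita were higher in untreated Mbd2-/- epithelium than in colitis. Class II molecules present peptides from outside the cell to CD4+ T cells, the chaperones Cd74 and H2-DM load them, and Ciita is the transactivator that switches the genes on. Of 13 measured members, 4 were called higher in Naive_KO than in DSS_WT and none lower, with a median difference of 1.32 against -0.02 over all genes. With the mutation 8 were called higher (median 2.95). With DSS 3 were called higher (median 1.41), Cd74, H2-Ab1 and H2-DMa. H2-Ab1 lost the DSS call in 11 and H2-DMa in 6 of 16 samples left out. At a limma adjusted p under 0.05 and any size of difference, 8 were higher in each of these contrasts. The mean log2 intensity of the 13 members was 10.55, 9.45, 10.16 and 9.17 in Naive_KO, 8.66, 8.53, 9.01 and 8.73 in DSS_WT and 7.81, 7.68, 8.00 and 7.46 in Naive_WT. The 3 groups were thus in 1 order without overlap.

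H2-DMb1, a chain of the peptide exchange factor, had log2 intensities of 11.68, 9.84, 11.13 and 9.68 in Naive_KO, 8.13, 7.50, 8.23 and 7.95 in DSS_WT and 6.68, 6.24, 6.61 and 6.35 in Naive_WT. The direct difference was 2.63 ± 0.34 (limma adjusted p = 2.2e-04), with a rise of 4.11 from Naive_WT by mutation (adjusted p = 1.2e-05) and an uncalled 1.48 by DSS (adjusted p = 0.0113). Its paralog H2-DMb2 differed by 2.59 ± 0.34 (adjusted p = 2.7e-04). A second, dim probe for H2-DMb2 gave 0.08, and as both genes are close copies, signal may be shared between them. Cd74, the invariant chain, gave 14.41, 13.07, 13.95 and 12.82 in Naive_KO and 11.47, 11.45, 12.41 and 11.81 in DSS_WT, again without overlap, and differed by 1.78 ± 0.32 (adjusted p = 0.00187). Cd74 was 1 of the 2 genes that rose with both and were called in the direct comparison, and the other was Art2b (1.07), an ADP-ribosyltransferase gene.

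Promoters of both H2-DMb genes are shown because they had the largest class II differences. In H2-DMb1 (chr17:34152941-34153190, plus strand) capitals mark TGANTCA, the AP-1 motif (6.75% of promoters), from 75 to 69 bases before the start, and in H2-DMb2 (chr17:34144999-34145248, plus strand) they mark TTCNNNGAA from 218 to 210. They hold 3 and 2 CG dinucleotides.
H2-DMb1: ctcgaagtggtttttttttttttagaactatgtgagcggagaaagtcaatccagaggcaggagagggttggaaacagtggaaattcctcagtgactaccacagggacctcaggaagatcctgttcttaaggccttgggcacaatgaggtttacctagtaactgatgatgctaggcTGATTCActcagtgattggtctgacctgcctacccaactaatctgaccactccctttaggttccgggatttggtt
H2-DMb2: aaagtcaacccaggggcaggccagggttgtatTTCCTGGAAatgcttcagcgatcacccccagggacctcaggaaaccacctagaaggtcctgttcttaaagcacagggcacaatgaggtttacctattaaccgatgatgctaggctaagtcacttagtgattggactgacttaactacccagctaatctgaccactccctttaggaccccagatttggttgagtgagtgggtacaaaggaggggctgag

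H2-Ab1, a chain of the presenting molecule, gave 13.85, 11.99, 13.65 and 11.71 in Naive_KO and 10.94, 11.18, 11.93 and 11.37 in DSS_WT, and the lowest Naive_KO sample lay within the DSS_WT range. Its difference of 1.45 ± 0.41 was not called (adjusted p = 0.0222), while the other 2 probes for H2-Ab1 gave 1.88 and 1.83 and were called. H2-DMa differed by 1.61 ± 0.39, just short of a call (adjusted p = 0.0104), and its other probe by 1.72, which was called. Ciita gave 8.77, 6.69, 7.99 and 6.17 in Naive_KO, 5.44, 4.55, 5.78 and 5.48 in DSS_WT and 4.53, 4.36, 4.53 and 4.40 in Naive_WT, where no array detected it. Ciita was higher by 2.09 ± 0.43 in the direct comparison (adjusted p = 0.00467) and at least 5.67-fold higher in Naive_KO than in Naive_WT, with the bound set by the dimmest detected probes. The DSS_WT mean of Ciita lay 1.33-fold above that bound, with replicate 2 (4.55) near the Naive_WT values, and the change was not called (adjusted p = 0.220). Here and below such bounds compare group means and leave out the spread between samples.

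The 4 Naive_KO samples were not alike in these genes. In 20 of the 27 measured members of the class II and class I heavy chain lists, replicates 13 and 15 both lay above replicates 14 and 16, and this held for all 12 members called against Naive_WT. The summed intensity of 16 macrophage and monocyte markers in Naive_KO replicates 13 to 16 was 6065, 4527, 5380 and 3250, that of 7 B and plasma cell markers 709, 465, 684 and 168, and that of 8 dendritic cell markers 446, 410, 427 and 366. All were highest in replicate 13 and lowest in replicate 16, and macrophages, B cells and dendritic cells carry class II molecules themselves. The order was not particular to them. Neutrophil marker sums were 621, 331, 428 and 223, and T and NK cell sums 1291, 950, 1040 and 938. Fibroblast, endothelial and smooth muscle sums were not lowest in replicate 16. In DSS_WT, where class II was lower, the macrophage sum was 6048, 5910, 9567 and 7467 and the dendritic cell sum 573, 721, 990 and 800, with every macrophage value above those of Naive_KO replicates 14, 15 and 16 and every dendritic cell value above all of Naive_KO. The B and plasma cell sum in DSS_WT was 416, 516, 568 and 376, below Naive_KO replicates 13 and 15, the samples with the highest class II levels. In Naive_WT the macrophage sum ran from 3180 to 4240. The B and plasma cell sum ran from 192 to 328 there, and the dendritic cell sum from 357 to 608. The part of such cells in the class II levels within Naive_KO was not tested. In sorted bulk samples, a change in the share of a cell type and a change of RNA per cell cannot be told apart.

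Class I heavy chain genes rose with the mutation in part and were not called with injury. Class I molecules present peptides made inside the cell to CD8+ T cells, and H2-Q and H2-T genes encode nonclassical forms. Of 14 measured members, 7 were called higher in Naive_KO than in DSS_WT (median 1.02), 4 rose with the mutation (median 0.97) and none was called with DSS (median -0.09). The mean level of the list was 10.85, 10.07, 11.09 and 10.00 in Naive_KO, 9.49, 9.23, 9.58 and 9.38 in DSS_WT and 9.49, 9.35, 9.72 and 9.52 in Naive_WT, so that every Naive_KO sample lay above both WT groups, which overlapped. With 1 sample left out in turn, the 4 calls with the mutation were lost in 11 of 16 cases for H2-Q6 (1.70 to 2.40), in 6 for H2-Q7 (1.17 to 1.65) and H2-T23 (0.90 to 1.26) and in 5 for H2-Q8 (2.12 to 2.99).

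H2-Q8 gave 10.95, 8.73, 10.69 and 8.33 in Naive_KO, 6.95, 6.67, 7.22 and 7.35 in DSS_WT and 7.14, 6.60, 7.31 and 7.48 in Naive_WT. It differed by 2.63 ± 0.45 in the direct comparison (limma adjusted p = 0.00142) and by -0.09 with DSS (CI -1.04 to 0.87). H2-Q6 was higher by 2.14 ± 0.39, H2-Q7 by 1.60 ± 0.26 and H2-T23, which encodes the peptide-presenting Qa-1, by 1.12 ± 0.20. H2-Q2, H2-K1 and H2-K2 were higher by 1.77, 1.47 and 1.02. A second probe of H2-K2 gave a called 2.21 and one of H2-Q8 a called 3.02. Of the 2 other H2-T23 probes, one was called (1.24) and one was not (0.49). Class I genes resemble each other in sequence, and cross-hybridization could not be told apart from expression. The probes of H2-K2 and H2-T23 share a run of 24 of 50 bases, and no other pair of compared MHC probes shares more than 9. The probes were not compared with the transcripts of the other genes. Gm8909, a gene named after a prediction, differed by 2.25 ± 0.38 as well.

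Genes that make and load class I peptides lay between both patterns. Of 12 measured, 1 was called higher in Naive_KO than in DSS_WT (median 0.42), 3 rose with the mutation (median 0.99) and 1 rose with DSS (median 0.61). Tapbp, which bridges class I molecules to the transporter, gave 8.13, 7.50, 9.02 and 7.61 in Naive_KO and 6.86, 5.26, 6.91 and 6.34 in DSS_WT without overlap and was called (1.72 ± 0.33, adjusted p = 0.00294). Psmb8, an immunoproteasome subunit, rose by 3.04 ± 0.41 with the mutation, and its direct difference of 1.52 ± 0.41 was not called (adjusted p = 0.0181), while a second probe gave a called 2.04. Psmb9 and Tap2 had uncalled direct differences of 0.75 (CI -0.05 to 1.55) and 1.19 (CI 0.52 to 1.85). With arrays scaled to a common median the medians of the class II, class I heavy chain and peptide loading lists became 0.83, 0.59 and -0.05, which is 1.20, 0.96 and 0.32 above the shift of all genes. The loading list thus turned negative and stayed above that shift under both scalings, and 3 class I heavy chain genes in place of 7 were called higher.

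Beyond antigen presentation, 1 of 30 interferon-γ response genes was called in the direct comparison, Icam1, which was lower in Naive_KO (list median -0.20), with 5 members up with the mutation (median 0.90) and 12 up with DSS (median 1.03). The mean level was 9.50, 8.50, 9.14 and 8.35 in Naive_KO, 9.01, 8.69, 9.46 and 9.20 in DSS_WT and 7.82, 7.72, 7.94 and 7.82 in Naive_WT, so that both states overlapped and lay above Naive_WT. With median scaling 7 members were called lower in Naive_KO (median -0.67, or -0.30 relative to the shift of all genes). Cxcl9, a T cell chemokine, gave 9.52, 7.02, 8.19 and 6.63 in Naive_KO and 7.87, 6.85, 9.74 and 8.97 in DSS_WT. It rose by 3.13 ± 0.58 with DSS, while 2.61 ± 0.58 with the mutation was not called (adjusted p = 0.0175), and the direct difference was -0.52 (CI -1.74 to 0.71). Icam1, an adhesion molecule for leukocytes, had a direct difference of -1.37 ± 0.24 (adjusted p = 0.00165) and rose with DSS by 1.59. Ifng, the interferon-γ gene itself, was detected on 1 of 4 Naive_KO and 0 of 5 DSS_WT arrays.

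Among 24 type I interferon genes, 1 was called higher and 1 lower in the direct comparison (median 0.13), against 0.925% and 1.64% of all probes. Irf7, the master regulator of that response, gave 8.98, 8.84, 9.09 and 9.60 in Naive_KO, 7.91, 7.95, 7.97 and 7.31 in DSS_WT and 7.79, 7.84, 7.91 and 7.61 in Naive_WT. Naive_KO stood above both WT groups: Irf7 rose by 1.34 ± 0.18 with the mutation (limma adjusted p = 6.0e-04), differed by 1.34 ± 0.18 in the direct comparison (adjusted p = 2.9e-04) and had a CI of -0.38 to 0.38 around 0 with DSS. Ifi27l2a went the other way, with a called difference of -1.83 ± 0.39 after a rise of 1.99 with DSS. Rsad2, an antiviral enzyme, fell by 1.19 with the mutation.

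Of the 12 largest negative differences without overlap between the groups, 9 belonged to genes that rose with DSS and were not called with the mutation. The DSS call was lost in 12 of 16 samples left out in turn for A630084D02Rik (1.14 to 1.80), in 4 for Mmp10 (1.93 to 2.43) and in 3 for Gm1673 (2.09 to 2.71), whose other probe was not called with DSS, and held for the other 6. Serpina3n, an acute-phase protease inhibitor, gave 7.77, 6.89, 7.38 and 6.62 in Naive_KO, 9.84, 9.55, 10.57 and 10.29 in DSS_WT and 6.99, 7.47, 7.70 and 6.51 in Naive_WT. Naive_KO overlapped untreated WT, and every DSS_WT sample was above both. Serpina3n rose by 2.89 ± 0.36 with DSS (limma adjusted p = 3.3e-04), had a direct difference of -2.90 ± 0.36 (adjusted p = 1.8e-04) and had a CI of -0.77 to 0.76 around 0 with the mutation.

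Of 22 acute-phase and Stat3 target genes, 4 were called lower in Naive_KO than in DSS_WT (median -0.56), 6 rose with DSS (median 0.67) and 0 were called with the mutation (median 0.06). They were Lrg1 (-2.42 ± 0.52), whose groups overlapped, Lbp, which carries bacterial lipopolysaccharide (-1.43), Osmr, the receptor of oncostatin M (-1.15 ± 0.17), and Il1rn, the interleukin-1 antagonist (-1.44 ± 0.26). Il1rn was the exception in that DSS alone gave 0.39 (adjusted p = 0.367) and the mutation -1.05 (adjusted p = 0.0293), neither called. Of its 2 other probes, one gave a called -1.07 and one an uncalled -0.38.

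Of 21 Reg lectins and secreted antimicrobials, 3 were called lower in Naive_KO (median -1.02), 9 rose with DSS (median 1.78) and Reg3b rose with the mutation (median 0.35). The lower ones were Reg1 (-1.59 ± 0.23), Defb37, a beta-defensin (-1.85 ± 0.36), and Reg3a (-1.02 ± 0.24). Reg3g, a lectin against Gram-positive bacteria, rose by 4.44 ± 0.55 with DSS and had an uncalled 2.54 ± 0.55 with the mutation (adjusted p = 0.0159). The list means of 8.98, 8.93, 8.71 and 8.11 in Naive_KO lay below the DSS_WT range of 9.18 to 9.60 in every sample. The list depends on the processing: 1 member was called lower without background correction (median -0.39), 2 with an offset of 50 (-0.64) and 10 with median scaling (-1.25). Median scaling also raised the lower calls of the acute-phase list from 4 to 9, of the chemokine list from 7 to 11 and of the repair list from 7 to 12, and without background correction they were 1, 4 and 2.

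Of 22 epithelial chemokines and cytokines, 7 were called lower in Naive_KO than in DSS_WT (median -0.54), 9 rose with DSS (median 0.45) and 1, Il33, fell with the mutation (median 0.09). Il1b, a cytokine of myeloid cells above all, gave 8.96, 8.02, 8.32 and 7.34 in Naive_KO and 9.42, 10.06, 11.04 and 10.50 in DSS_WT, without overlap (-2.09 ± 0.35, limma adjusted p = 0.00112). Cxcl2, which attracts neutrophils, gave 7.71, 7.34, 6.85 and 7.09 and 8.80, 8.98, 9.28 and 9.38, also without overlap (-1.86 ± 0.22, adjusted p = 1.5e-04); its other probe gave an uncalled -0.85. Cxcl1 differed by -1.57 ± 0.17, Il6 by -1.94 ± 0.22, Ccl3 by -1.20 and Il18 by -1.07.

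Of 29 repair and fetal-like genes, 7 were called lower in Naive_KO (median -0.48), and 5 rose with DSS. Il11, a cytokine of mucosal repair, gave 5.39, 5.29, 4.62 and 5.32 in Naive_KO and 7.09, 7.41, 8.23 and 7.59 in DSS_WT (-2.42 ± 0.34, limma adjusted p = 3.7e-04), with Naive_KO close to Naive_WT (4.68 to 5.26). Mmp10, a metalloproteinase of wound edges, was detected on no Naive_KO array and was at least 3.59-fold lower there than in DSS_WT (adjusted p = 0.00221). Sprr2h, a cornified envelope gene, was likewise undetected and at least 2.07-fold lower. Plaur and Il1rl1 differed by -1.08 and -1.31. Ly6a of the same list rose in both states, as given above, and Sprr1a was lower by way of the mutation, as given below.

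The promoters of Mmp3 and Mmp10, which rose with injury, and of Cldn4 and Sprr1a, which fell with the mutation, are shown together because all 4 hold the AP-1 motif TGANTCA, in capitals. It lies from 46 to 40 bases before the start of Mmp3 (chr9:7445572-7445821, plus strand), from 63 to 57 in Mmp10 (chr9:7502092-7502341, plus strand), from 240 to 234 and 158 to 152 in Cldn4 (chr5:134946935-134947184, minus strand) and from 146 to 140 and 116 to 110 in Sprr1a (chr3:92485882-92486131, minus strand). These genes were picked after the motif search, and the promoters of Serpina3n, Timp1, Adamts9 and Gm1673, which also rose with injury and not with the mutation, hold no such motif. CG dinucleotides numbered 1, 1, 7 and 0. All are from RefSeq, GRCm38.p6.
Mmp3: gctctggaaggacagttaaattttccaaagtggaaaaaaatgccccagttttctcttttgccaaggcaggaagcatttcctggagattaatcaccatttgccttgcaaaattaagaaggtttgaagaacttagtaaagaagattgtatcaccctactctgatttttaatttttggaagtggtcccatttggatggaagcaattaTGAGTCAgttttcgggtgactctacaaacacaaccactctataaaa
Mmp10: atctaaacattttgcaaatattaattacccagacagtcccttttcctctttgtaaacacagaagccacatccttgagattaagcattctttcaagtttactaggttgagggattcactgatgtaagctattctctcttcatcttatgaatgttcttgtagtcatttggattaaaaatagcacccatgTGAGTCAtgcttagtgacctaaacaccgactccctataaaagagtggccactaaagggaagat
Cldn4: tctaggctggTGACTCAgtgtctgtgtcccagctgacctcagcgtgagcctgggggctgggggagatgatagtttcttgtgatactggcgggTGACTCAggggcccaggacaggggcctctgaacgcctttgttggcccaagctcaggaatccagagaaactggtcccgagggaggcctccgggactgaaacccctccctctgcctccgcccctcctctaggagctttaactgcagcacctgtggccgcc
Sprr1a: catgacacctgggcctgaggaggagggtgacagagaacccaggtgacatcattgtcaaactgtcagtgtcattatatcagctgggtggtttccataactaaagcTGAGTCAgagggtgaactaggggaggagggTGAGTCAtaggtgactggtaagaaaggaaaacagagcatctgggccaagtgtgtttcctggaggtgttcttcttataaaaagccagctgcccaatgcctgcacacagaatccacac

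Markers of other cells moved with the injury genes. Of 33 fibroblast and matrix genes, 19 were called lower in Naive_KO than in DSS_WT (median -1.20), and 14 rose and 1 fell with DSS. Their summed intensity ran from 8650 to 11600 in Naive_KO, 17100 to 24500 in DSS_WT and 9280 to 16200 in Naive_WT, and all 33 were detected on every DSS_WT array. Timp1, an inhibitor of metalloproteinases, gave 5.68, 5.36, 4.79 and 5.23 in Naive_KO and 7.72, 7.63, 8.28 and 7.89 in DSS_WT (-2.62 ± 0.26, limma adjusted p = 2.9e-05). Mgp, matrix Gla protein, differed by -2.45 ± 0.31, Mmp3 by -2.21 ± 0.41 and Adamts9, a matrix protease, by -2.31 ± 0.21. Of the other Mmp3 probes, one gave a called -2.95. Another gave an uncalled -1.65 and was not called with DSS either (1.63). Both groups stood apart in Timp1, Mgp, Mmp3 and Adamts9. Of 4 Naive_KO arrays, 3 detected Timp1, Mmp3 and Il11 and 1 detected Adamts9, and the size of these differences is limited by background.

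Of 18 endothelial markers 7 were called lower in Naive_KO, with sums of 1010 to 1250 against 1990 to 3040 in DSS_WT, of 16 macrophage markers 3 (3250 to 6060 against 5910 to 9570), of 10 neutrophil markers 2 (223 to 621 against 933 to 3080), of 8 dendritic cell markers 3 (366 to 446 against 573 to 990), of 12 T and NK cell markers 2 (938 to 1290 against 2070 to 2720) and of 15 smooth muscle markers 1 (9550 to 13900 against 14100 to 19800). Over all probes 1.64% were called lower in this comparison and 1.34% higher with DSS. With DSS 14 macrophage markers were called higher (median 1.39). So were 2 neutrophil, 2 dendritic cell and 1 T and NK cell markers, and no endothelial or smooth muscle marker. Of the neutrophil markers, 5 were detected on no Naive_KO array, and Csf3r, which defines the cells, on 1 of 4 Naive_KO and 4 of 5 DSS_WT arrays. Of the T and NK cell markers, 6 were detected on no Naive_KO array, and Cd3e, which defines T cells, was detected on 0 Naive_KO and 1 DSS_WT arrays. Pecam1, Des and Col1a1, which define endothelium, muscle and fibroblasts, were detected on all 18 arrays. The 7 B and plasma cell markers had no called member (168 to 709 against 377 to 568). The part of such cells in the lower Serpina3n, Il1b, Cxcl2, Il6, Il11, Mmp3 and acute-phase values of Naive_KO was not tested.

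**Figure D4:**
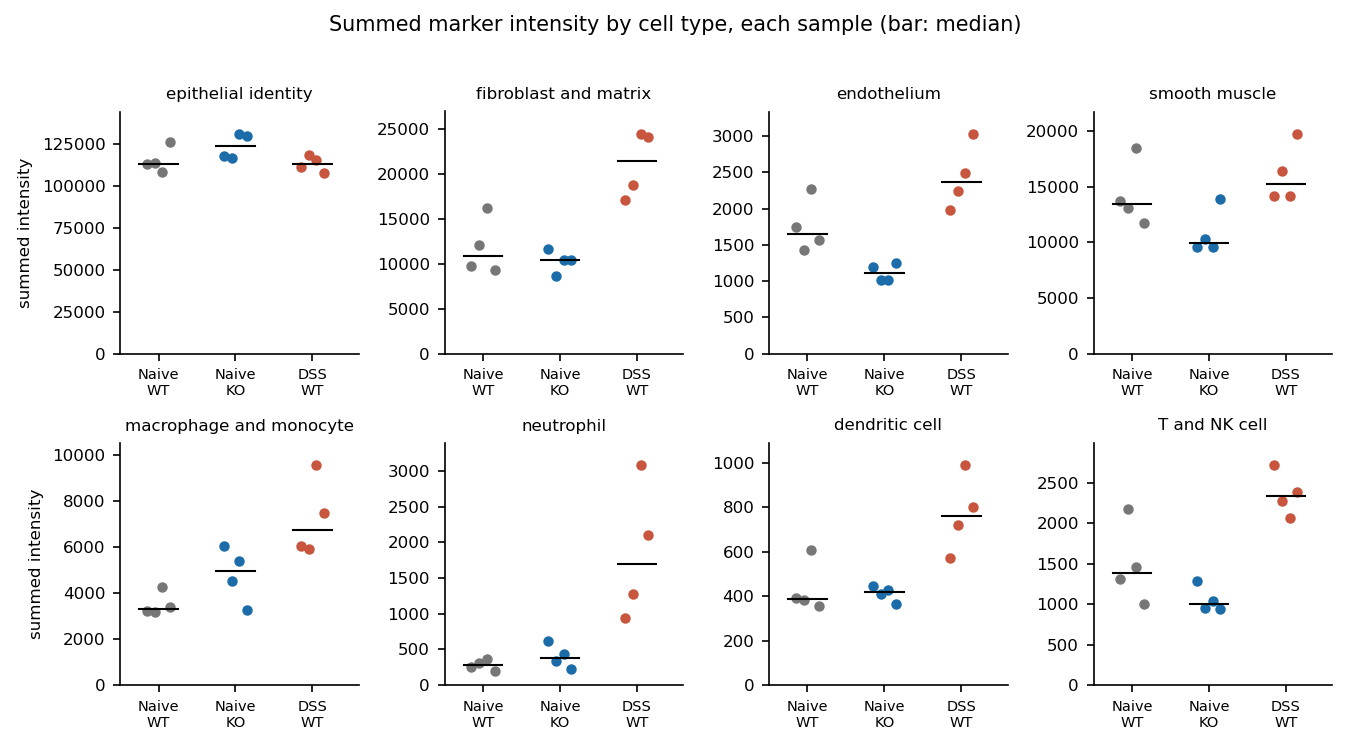
Summed background-corrected intensity of epithelial identity genes and of the markers of 7 other cell types in each sample of Naive_WT, Naive_KO and DSS_WT, with a bar at the group median; every vertical axis starts at 0. Fibroblast, endothelial, smooth muscle, neutrophil, dendritic and T and NK cell sums were higher in all DSS_WT samples than in all Naive_KO samples, while epithelial identity sums overlapped.

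Of the genes called in the direct comparison, the 37 called with the mutation and not with DSS included a claudin, a cornified envelope gene and a mucin. Cldn4, a claudin of tight junctions, gave 9.39, 9.87, 10.23 and 11.62 in Naive_KO, 12.77, 12.77, 12.37 and 12.16 in DSS_WT and 12.18, 12.88, 11.40 and 12.92 in Naive_WT. It fell by 2.06 with the mutation (limma adjusted p = 0.00669), had a direct difference of -2.24 ± 0.38 (adjusted p = 0.00141) and differed by 0.17 with DSS (CI -0.64 to 0.98). The direct call held with any 1 sample left out, and the mutation call was lost in 7 of 16 cases (-2.51 to -1.77). Naive_KO did not overlap DSS_WT, while its highest sample, replicate 16, lay above the lowest Naive_WT sample.

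Sprr1a, a cornified envelope gene, gave 8.17, 8.33, 8.58 and 9.80 in Naive_KO and 10.89, 11.01, 10.41 and 10.33 in DSS_WT, without overlap. It fell by 1.93 with the mutation (adjusted p = 0.00200), with a direct difference of -1.94 ± 0.30 and 0.01 with DSS (CI -0.63 to 0.65). Il33, an alarmin, fell by 1.49 with the mutation and had a direct difference of -1.54 ± 0.27 (adjusted p = 0.00176). Krt36, a keratin, had -1.63 ± 0.41 in the direct comparison (adjusted p = 0.0130) and -1.88 with the mutation (adjusted p = 0.0159), and neither was called.

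Muc1, a transmembrane mucin, gave 9.13, 8.77, 8.46 and 8.99 in Naive_KO, 7.01, 7.38, 6.80 and 7.17 in DSS_WT and 7.25, 6.88, 6.36 and 7.08 in Naive_WT. Naive_KO stood above both WT groups, with a rise of 1.95 ± 0.25 by mutation (limma adjusted p = 4.7e-04) and a direct difference of 1.75 ± 0.25 (adjusted p = 4.8e-04). The other 3 Muc1 probes gave called differences of 1.88, 2.02 and 2.42. Muc4 and B3gnt6, a glycosyltransferase of mucin core chains, were higher in Naive_KO by 1.55 ± 0.21 and 1.25 ± 0.26, and neither was called against Naive_WT in either state. These 3 were the called ones of 25 goblet cell and mucin genes (median 0.26). Muc2, the gel-forming mucin, differed by 0.25 (CI 0.04 to 0.45), at intensities near the top of the scale, where differences can be compressed.

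The 2 genes Igfals and Sema7a were called in opposite directions. Igfals, which carries insulin-like growth factors in blood, gave 8.97, 8.81, 9.12 and 8.57 in Naive_KO, 6.08, 6.41, 5.66 and 5.81 in DSS_WT and 7.22, 7.04, 6.96 and 6.92 in Naive_WT. It rose by 1.83 ± 0.22 with the mutation and fell by 1.04 with DSS, and had the largest positive direct difference of a brightest probe (2.88 ± 0.22, limma adjusted p = 2.9e-06). Sema7a, a semaphorin with immune roles, gave 6.34, 5.62, 6.03 and 6.39 in Naive_KO, 8.51, 8.33, 8.57 and 8.65 in DSS_WT and 7.75, 7.60, 7.08 and 6.56 in Naive_WT. It fell by 1.15 with the mutation and rose by 1.27 ± 0.22 with DSS, for a direct difference of -2.42 ± 0.22 (adjusted p = 1.7e-05). In Igfals and Sema7a all 3 groups were apart from each other. Their direct calls held with any 1 sample left out, while the mutation call of Sema7a was lost in 12 of 16 cases (-1.38 to -0.98) and the DSS call of Igfals in 7 (-1.19 to -0.93).

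**Figure D5:**
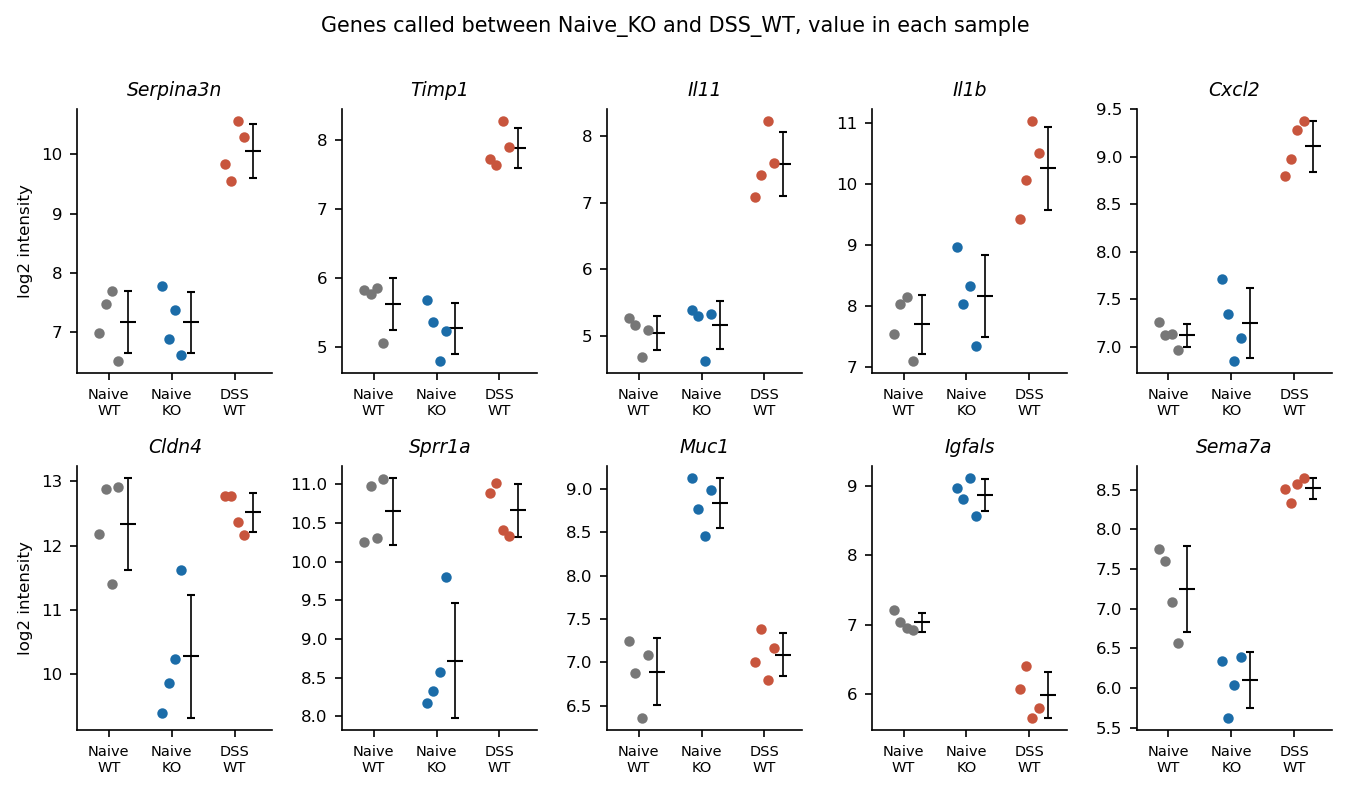
Log2 intensity of 10 genes called between Naive_KO and DSS_WT, in each sample of Naive_WT (grey), Naive_KO (blue) and DSS_WT (red), with the group mean and SD (n = 4) to the right of the points. Each panel has its own scale. In the upper row Naive_KO sits near Naive_WT and below DSS_WT, and in the lower row it is Naive_KO that leaves Naive_WT in Cldn4, Sprr1a and Muc1, while Igfals and Sema7a leave it in opposite directions.

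Among the remaining genes with the largest differences, a probe labelled Siat7f was higher in Naive_KO by 2.74 ± 0.55 (limma adjusted p = 0.00369), with a fall of 2.80 with DSS and -0.06 with the mutation. RefSeq lists Siat7f as an older name of the sialyltransferase St6galnac6, whose own brightest probe was not called (0.77) and whose other probes gave a called 2.17 and an uncalled 1.46. Hpn, the membrane protease hepsin, was higher by 2.53 ± 0.24 after a fall of 1.52 with DSS. Its 2 other probes gave called direct differences of 1.37 and 1.49 and uncalled changes of -0.53 and -0.54 with DSS. Ctcfl, a paralog of the insulator protein Ctcf that is known for expression in testis, was higher by 2.00 ± 0.28 and was not called against Naive_WT in either state (0.99 and -1.02). Hpn and Ctcfl were each detected on 2 of 5 DSS_WT arrays, so that both differences are limited by background there. A probe labelled 0610037M15Rik (2.76), by RefSeq an older name of H2-Q6, and the unnamed transcripts F830002E14Rik (2.20), A630084D02Rik (-2.49), Gm1673 (-2.27) and scl0001118.1_0 (-2.20) complete the 12 a side, and LOC677317 (2.02 and 1.69) the 10 that rose most with both.

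Lists of epithelial cell types and functions had from 0 to 3 called members between the states. Over all probes 2.57% were called. This share was exceeded by 3 of 25 goblet, 2 of 21 enteroendocrine and 2 of 28 butyrate genes. It was also exceeded by 2 of 33 keratin, claudin and junction and 1 of 25 endoplasmic reticulum stress genes. A list of 13 to 41 genes without a call is too short to be told from that share. None of 41 absorptive colonocyte, 16 stem cell and Wnt, 27 proliferation, 40 cytochrome P450 and detoxification, 13 oxidant-producing or 17 DNA methylation reader and NuRD genes was called in the direct comparison, with list medians from -0.15 to 0.32. Lgr5, the stem cell marker, differed by -0.01 (CI -0.69 to 0.67). Car1, a carbonic anhydrase of colonocytes, differed by -0.09 (CI -0.43 to 0.25), at intensities near the top of the scale, where differences can be compressed. Chga, chromogranin A of enteroendocrine cells, differed by -0.54 (CI -1.13 to 0.04), with 0.42 and -0.48 on its other probes. In the enteroendocrine list 2 of 21 were called lower, Tac1, which encodes substance P (-1.15 ± 0.19), and Neurog3, the endocrine fate factor (-1.25 ± 0.30). Of 28 butyrate and fatty acid oxidation genes, Acsl1 and Hadhsc, enzymes of fatty acid activation and oxidation, were higher in Naive_KO (1.01 and 1.40) after falls of 1.11 and 1.66 with DSS. With 1 sample left out, Hadhsc lost the direct call in 14 and the DSS call in 5 of 16 cases, and Acsl1 the direct call in 3 and the DSS call in 1. Hadhsc is an older name of Hadh, whose own dim probe, also counted in the list, gave an uncalled 0.06. Of 33 keratin, claudin and junction genes, Gja1, a gap junction protein, was lower (-1.69 ± 0.20) beside Cldn4, and of 25 endoplasmic reticulum stress genes Sdf2l1 was higher (1.05 ± 0.20). None of 14 housekeeping genes was called (median -0.15). With median scaling the medians of the colonocyte, goblet, stem cell, type I interferon and butyrate lists turned from positive to negative (-0.14, -0.09, -0.18, -0.22 and -0.33), and relative to the shift of all genes they stayed above it by 0.22, 0.28, 0.19, 0.15 and 0.04. The endoplasmic reticulum stress, oxidant-producing and epithelial identity lists turned as well (-0.42, -0.38 and -0.43) and stood at -0.05, -0.01 and -0.06 relative to that shift.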

How the data were processed

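Colon epithelial RNA was hybridized to Illumina MouseWG-6 BeadChips (18 arrays, 45281 probes). Per the file headers, the deposited AVG_Signal values are mean bead intensities without normalization or background subtraction. The deposited detection p-value sets each probe against negative controls of its array. The submitters' processing notes name lumi and limma without versions, and the deposited table precedes those steps. A further 72 columns of per-array values (beads and their errors) were not used.

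Intensities were background-corrected with 936 negative controls, quantile-normalized and log2-transformed with neqc (offset 16, limma 3.58.1, R 4.3.3), which draws changes of dim probes toward 0. Probes detected (p under 0.05) on at least 4 arrays were kept (21938). Arrays 4R and 5R, unexplained in the labels, were averaged with 4 and 5. One model with 4 group means was fitted to all 16 samples, after it was tested on simulated data, and p-values (two-sided, Benjamini-Hochberg) were adjusted over all tested probes per contrast. A probe was called at an adjusted p under 0.01 and an absolute log2 difference of 1 or more. No batch is given in the labels, so none was modelled. The number of arrays limits the precision.

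The brightest tested probe stood for a gene. Named were the 12 largest called differences a side whose groups did not overlap, the 10 largest called alike in both contrasts with Naive_WT, up to 4 members of each list with the smallest adjusted p, and 22 markers and genes that the study names. Other genes were chosen after their values were seen. Members and lists were chosen with earlier results of these data known. Symbols were updated through RefSeq by Entrez identifier (29586 probes, 65.3%). No promoter is shown for Ido1, Ciita, Ly6a or H2-Q8. Alternatives were background correction, scaling, offset, filter, samples fitted, repeat arrays, threshold and each sample left out. Python 3.11.15, pandas 2.3.3 and matplotlib 3.10.9 were used for tables and figures. The values of some single genes are not reported here.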

Additional observations from a re-analysis of the deposited data

Results flagged for a closer look

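Within a group of 4 samples, 1 sample stood far from the other 3 in 22 of 339 gene and group combinations checked (Dixon's criterion at 95%). Chance flags about 1 in 20 groups. Values are log2 intensities, and no explanation was tested.

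In Naive_KO, Siat7f stood at 9.81 in replicate 15, against 8.42 to 8.59 in the others. F830002E14Rik was 9.57 in replicate 15 (others 7.57 to 7.68). Il11 was 4.62 in replicate 15 (others 5.29 to 5.39). Rsad2 was 8.48 in replicate 16 (others 7.66 to 7.72). Scnn1b was 5.94 in replicate 15 (others 6.97 to 7.17).

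In DSS_WT, Mmp3 stood at 8.37 in replicate 3, against 6.99 to 7.08 in the others. Reg3b was 13.76 in replicate 2 (others 14.51 to 14.56). Ly6a was 12.57 in replicate 2 (others 13.22 to 13.33). Irf7 was 7.31 in replicate 4 (others 7.91 to 7.97). Rsad2 was 8.90 in replicate 2 (others 8.52 to 8.55). Dhx58 was 6.61 in replicate 4 (others 7.04 to 7.08). Reg1 was 6.34 in replicate 2 (others 6.85 to 6.88). Osmr was 7.41 in replicate 1 (others 7.67 to 7.70). Pax4 was 5.31 in replicate 2 (others 5.93 to 5.98). Acot2 was 5.75 in replicate 3 (others 5.12 to 5.18). Adh1 was 12.17 in replicate 4 (others 12.86 to 12.98). Ddit3 was 9.52 in replicate 4 (others 10.01 to 10.09).

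In Naive_WT, Timp1 stood at 5.05 in replicate 12, against 5.76 to 5.85 in the others. Tapbp was 7.21 in replicate 12 (others 6.92 to 6.96). Ccna2 was 5.43 in replicate 9 (others 5.04 to 5.09). Acot2 was 5.28 in replicate 11 (others 5.60 to 5.66). Actg2 was 11.78 in replicate 11 (others 10.99 to 11.02).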

How the results depend on the processing

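No paired analysis was possible because each group has replicate numbers of its own.

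Counts below are probes called in the direct comparison of Naive_KO with DSS_WT (563, with 203 higher and 360 lower), with the mutation (144, 88 and 56) and with DSS (382, 294 and 88), then members called in the direct comparison over the 20 epithelial lists (46) and over the named genes (53). Without background correction they were 131 (57 and 74), 54 (39 and 15), 84 (70 and 14), 25 and 35. With an offset of 50 the direct comparison gave 282 (114 and 168), the mutation 31 lower and DSS 186 (153 and 33). With median scaling the direct comparison gave 1315 (83 and 1232), DSS 660 (625 and 35) and the lists 80; the share called higher went from 36.1% to 6.31% in the direct comparison and from 77% to 94.7% with DSS, whose median over all genes moved to 0.27. Without the detection filter the counts were 127 higher in the direct comparison, 90 with the mutation (29 lower), 53 lower with DSS and 30 in the lists. Fitting only the groups compared gave 355 (93 higher), 39 (28 and 11) with the mutation, 24 in the lists and 35 named genes. With the 18 arrays kept separate, 315 were higher in the direct comparison and 153 lower with DSS. At an adjusted p under 0.05 with the same difference of 1, 342 were higher in the direct comparison, 285 (155 and 130) changed with the mutation, 183 fell with DSS and 70 list members were called. The cause was not tested for any of these.

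Leaving out 1 sample at a time gave 352 to 679 calls in the direct comparison (116 to 299 higher, 235 to 386 lower), 73 to 279 with the mutation (51 to 142 and 22 to 137), 233 to 477 with DSS (181 to 326 and 46 to 151), 29 to 48 in the lists and 41 to 54 named genes. The lowest counts came without DSS_WT replicate 4 or 3, Naive_KO replicate 15 or Naive_WT replicate 10, and the highest without DSS_WT replicate 1 or Naive_KO replicate 16 or 13. No called difference of a named gene changed direction under any alternative run.

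Of the 53 named genes called in the direct comparison, 16 lost the call without 1 sample or another. The least stable were Hadhsc (14 of 16 samples left out in turn, difference 1.06 to 1.68), Reg3a and Neurog3 (12 each, -1.20 to -0.91 and -1.52 to -1.12), and Lrg1 and Ifi27l2a (6 each, -3.06 to -2.11 and -2.13 to -1.59). Ciita (1.64 to 2.50), H2-K2 (0.85 to 1.16) and B3gnt6 (1.02 to 1.49) lost it in 4, Siat7f (2.30 to 3.26) and Acsl1 (0.79 to 1.13) in 3. Ciita and H2-K2 did so without DSS_WT replicate 2 or 4 or Naive_KO replicate 13 or 15. F830002E14Rik and Defb37 lost it in 2, and Gm1673, H2-T23, Tapbp and Sdf2l1 in 1. Of 27 named genes called with the mutation 13 lost that call without 1 sample or another, and of 41 called with DSS 21 did. Over all 3 comparisons, 52 of 121 called differences of named genes lost the call without background correction, 45 when only the groups compared were fitted and 36 without the filter.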
